A study of Mus musculus with 3 samples.

Results

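Translation factors and aminoacyl-tRNA synthetases were followed in B16, a melanoma line of the mouse, during the first 4 h of exposure to doxorubicin. Members were all genes whose symbol begins with Eif or Eef and a digit, together with the synthetase symbols (1 letter followed by ars, with or without a 1 or 2), Eprs, Farsa and Farsb. This gave 92 genes, of which 58 were factors and 34 synthetases, out of 18193 genes on the array that had a probe set with 1 symbol. Of these, 87 passed an expression filter, 55 factors and 32 synthetases, and they were measured by 176 passing probe sets. The rule reads gene symbols alone. Eif1, Eif2s1, Eif3g, Eif3j, Eif4g1, Eif4ebp3, Eef1g and Dars were not analysed here.

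The study treated cultures with 1 µg/ml doxorubicin, an anthracycline drug that binds DNA and traps topoisomerase II on it, and took RNA at 0, 2 and 4 h. Total RNA of each time was hybridised to 1 Affymetrix Mouse430_2 array, a 1-colour chip with short oligonucleotide probes grouped into probe sets. With 1 array per time there was no spread between cultures to test against, and no p-value is given. Since cultures without the drug were not sampled at 2 or 4 h, its effect cannot be told apart from that of time, handling or the array itself.

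Signals are linear probe set intensities rescaled to a 2% trimmed mean of 500 on every array, with values under 100 set to 100 before log2 ratios were taken. A gene passed with a geometric mean signal of at least 200, and its brightest passing probe set stood for it. For genes with more than 1 passing probe set, the SD of their log2 ratios is given as a probe-level error. Pooled over all such genes, that SD was 0.40 at 2 h and 0.48 at 4 h. Over genes split by signal into 4 bins of like size, it was 0.33 and 0.38 in the brightest bin and 0.59 and 0.69 in the dimmest. This error holds no variation between cultures or between arrays. Differences of 2-fold or more, a log2 ratio of 1, were counted. Signals of different genes are not compared, because probe sets differ in brightness for reasons other than abundance. In these bulk samples, fewer cells of a type and less RNA per cell cannot be told apart.

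At 0, 2 and 4 h the median signal of all probe sets was 154, 136 and 126, while the trimmed mean was held equal. A description field of the labels names bone marrow-derived macrophages, whereas titles and sources name B16 melanoma. Pigment cell markers reached a signal of 200 in 13, 11 and 12 of 13 genes at 0, 2 and 4 h, and their median signal was 8401, 2640 and 1638. The pigment enzyme gene Tyrp1 was at 42568, 44083 and 47128, while the pigment cell transcription factor genes Sox10 (11710, 2640 and 892) and Mitf (6576, 2031 and 739) were lower at both later times. Macrophage markers reached 200 in 6, 5 and 5 of 11 genes, with a median of 215, 197 and 151 and a sum of 3891, 4726 and 5514. Cd68, the brightest probe set among them, had 1884, 3044 and 3699, while Csf1r had 522, 424 and 376. Adgre1 (302, 197 and 301) and Fcer1g (320, 229 and 359) were near 200 or above, and Ptprc, Itgam and Mpeg1 stayed under 100 on all 3 arrays. The part of other cells in the results below was not tested.

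Protein synthesis begins when eIF2, bound to GTP and the initiator tRNA, joins the small ribosomal subunit with eIF1, eIF1A, eIF3 and eIF5, and this complex is brought to the capped end of an mRNA by eIF4F. eIF4F consists of the cap-binding protein eIF4E, the helicase eIF4A and the scaffold eIF4G, and 4E-binding proteins hold eIF4E back when they are not phosphorylated. Phosphorylation of eIF2 alpha by one of its kinases blocks its recycling by eIF2B, which lowers general initiation while permitting translation of the transcription factor ATF4. Elongation factors then deliver charged tRNAs and move the ribosome. The charged tRNAs come from aminoacyl-tRNA synthetases, of which animals have a cytosolic set and a mostly separate mitochondrial set, both encoded in the nucleus. Several cytosolic synthetase genes are known ATF4 targets, and genes of initiation factors are among the known targets of Myc.

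Most translation factors differed by less than 2-fold at both times. Their median log2 ratio was 0.12 at 2 h and 0.18 at 4 h, beside -0.01 and -0.07 for the 9723 genes that passed. At 4 h 37 of 55 factors lay above 0, beside 4483 of 9723 genes in all, but this direction rested on the scaling: the 4 h median was 0.48 with arrays set to equal medians, -0.02 after quantile normalization and -0.15 with scaling to the spike-in controls, where all genes stood at 0.24, 0.05 and -0.39. At 2 h 3 of 55 factors were at least 2-fold lower, beside 5.69% of all genes, and 1 was at least 2-fold higher, beside 1.41%. At 4 h 3 were at least 2-fold lower, beside 14.4%, and 0 were at least 2-fold higher, beside 2.32%. Between 2 h and 4 h no factor and no synthetase differed by 2-fold, beside 5.41% of all genes lower and 0.843% higher. Eif5, Eif4a2 and Eif2ak3 were the factors at least 2-fold lower at 2 h, and Eif5, Eif4a2 and Eif4b those at 4 h.

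**Figure D1:**
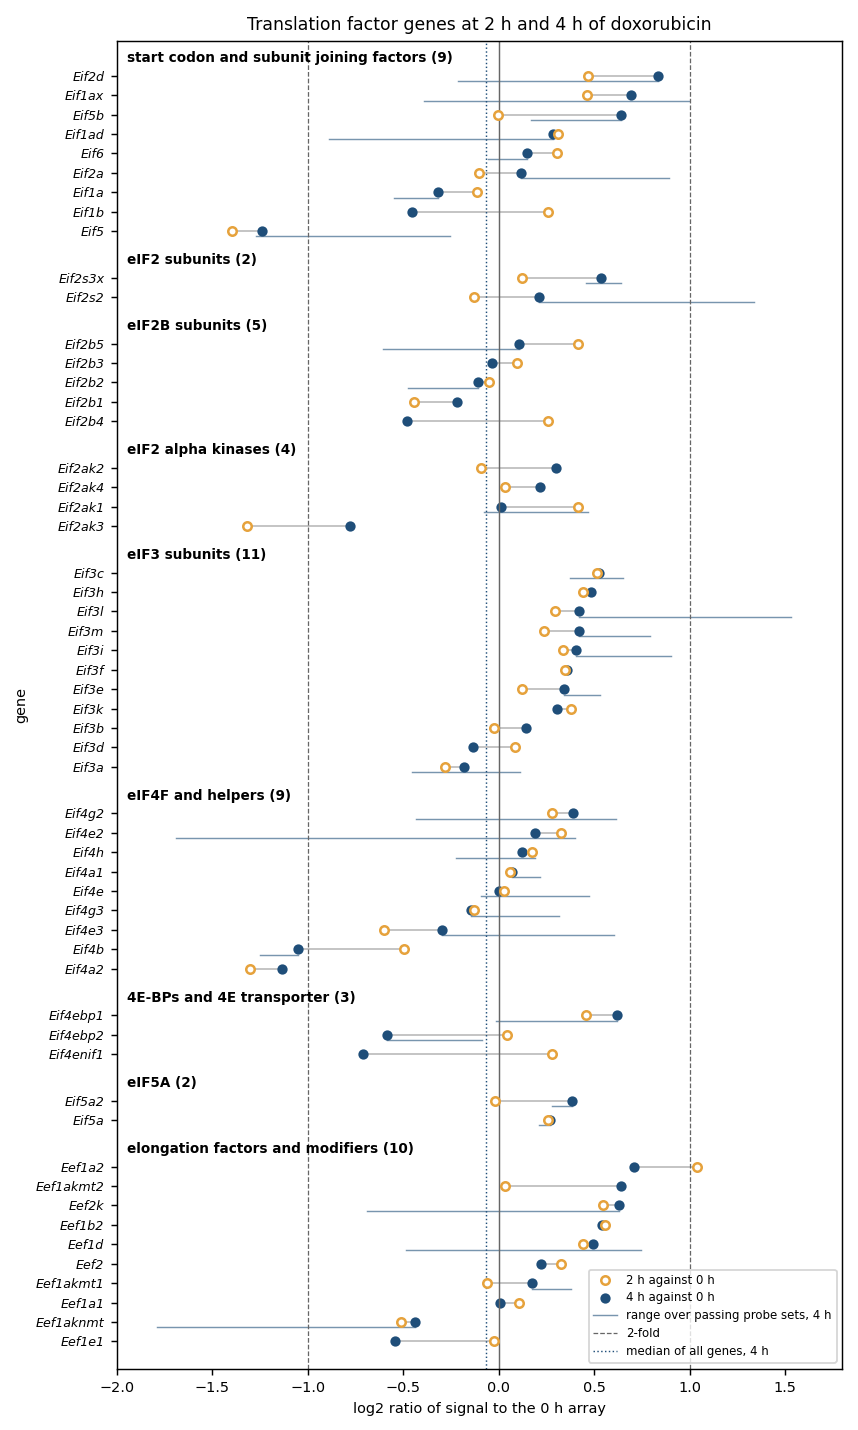
Log2 ratio of each passing translation factor to the 0 h array (open circles 2 h, filled circles 4 h), grouped by role, with thin bars for the range over its passing probe sets at 4 h and dashed lines at 2-fold. Eif5 and Eif4a2 lie beyond the lower line at both times, while the eIF3 subunits lie within it.

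Among the factors that choose the start codon and join the ribosomal subunits, Eif5 stood apart. Eif5 encodes the GTPase-activating protein of eIF2. Its signals were 6722, 2550 and 2842 at 0, 2 and 4 h. The 0 h array was high, and both later arrays were close to each other. The log2 ratio was -1.40 ± 0.33 at 2 h and -1.24 ± 0.42 at 4 h (SD over 5 probe sets), which is 2.64-fold and 2.37-fold lower. All 5 probe sets were lower at both times, from -1.51 to -0.76 at 2 h and from -1.27 to -0.25 at 4 h.

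The other 8 passing genes of this role stayed within 2-fold. Eif2d, which can deliver initiator tRNA without eIF2, had signals of 828, 1145 and 1478 at 0, 2 and 4 h. By this brightest probe set it was lowest at 0 h and highest at 4 h. Its log2 ratio was 0.84 ± 0.45 at 4 h (SD over 4 probe sets), the highest among factors by brightest probe set. The 4 probe sets ran from -0.22 to 0.84 at 4 h. Eif1ax, an eIF1A form that helps scanning, had signals of 7004, 9651 and 11332 and a ratio of 0.69 ± 0.73 at 4 h (SD over 3 probe sets), so that its probe sets did not share a sign. Eif5b, the GTPase of subunit joining, had signals of 708, 706 and 1105, with only the 4 h array standing higher, at 0.64. Eif1b, close kin of the start codon factor Eif1, had 2618, 3133 and 1913, highest at 2 h and lowest at 4 h. Eif6, which keeps the large subunit apart from the small one, had 8286, 10227 and 9182 with ratios of 0.30 and 0.15. The median of the 9 genes was 0.26 at 2 h and 0.15 at 4 h.

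Of the eIF2 subunits, which carry the initiator tRNA, Eif2s2 (beta) and Eif2s3x (gamma) passed. Eif2s3x had signals of 6838, 7437 and 9908 at 0, 2 and 4 h, with the 4 h array highest. Its 3 probe sets were close together, at 0.12 ± 0.04 and 0.53 ± 0.09, and the 4 h value stayed above 0 in all 12 settings of processing tried, from 0.16 to 0.84. Eif2s2 had 13102, 11979 and 15166, a 4 h ratio of 0.21, and its 5 probe sets ran from 0.21 to 1.34 at 4 h. The Y-linked Eif2s3y did not pass, with 31.6, 81.3 and 40.2.

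The 5 subunits of eIF2B, the exchange factor that reloads eIF2 with GTP, were all within 2-fold. Eif2b1 had signals of 2793, 2054 and 2401 at 0, 2 and 4 h, lowest at 2 h. Eif2b4 had 1134, 1355 and 812, highest at 2 h and lowest at 4 h, and Eif2b5, the catalytic subunit, had 1930, 2575 and 2074. By their brightest probe sets Eif2b2 and Eif2b3 stayed within 0.11 of 0 h on the log2 scale. The other passing probe sets of Eif2b2 stood at -0.48 and -0.37 at 4 h, and that of Eif2b5 at -0.61. The median of the 5 was 0.10 at 2 h and -0.11 at 4 h. Below 0 at 4 h lay 4 of 5, though with equal medians 4 of 5 lay above it. With the mean over probe sets 0 of 5 lay above 0 at 4 h.

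The eIF2 alpha kinases did not share a direction. Eif2ak3 encodes PERK, the kinase that responds to unfolded protein in the endoplasmic reticulum. Its signals were 1499, 601 and 873 at 0, 2 and 4 h, and the 2 h array was the lowest of the 3. This was 2.50-fold lower at 2 h (log2 ratio -1.32) and 1.72-fold lower at 4 h (-0.78), from 1 probe set. Eif2ak1, the haem-regulated kinase, had 875, 1165 and 881, high at 2 h alone by the brightest of its 3 probe sets. Another was nearly level (829, 841 and 786), and the dimmest was higher at both later times (167, 224 and 231). Eif2ak2, the double-stranded RNA kinase PKR, had 289, 271 and 356, and Eif2ak4, the amino acid sensor GCN2, had 269, 275 and 313. These last 2 differed from 0 h by at most 0.30 at either time.

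At 4 h 3 genes tied to eIF2 alpha phosphorylation that are not members were lower by more than any passing member by its brightest probe set. Pelo, another gene that is no member, was so too and is described below. Ppp1r15b, the constitutive targeting subunit of the eIF2 alpha phosphatase, had signals of 4260, 853 and 565 at 0, 2 and 4 h. Ppp1r15a, the stress-induced targeting subunit GADD34, had 904, 401 and 271. Atf4, the transcription factor translated when eIF2 alpha is phosphorylated, had 10918, 4477 and 1871. Ppp1r15b, Ppp1r15a and Atf4 were all highest at 0 h and lowest at 4 h. Their log2 ratios at 4 h were -2.91 for Ppp1r15b, -1.74 for Ppp1r15a and -2.54 ± 0.42 for Atf4 (SD over 2 probe sets). Gcn1, which activates GCN2, and Impact, which restrains it, stayed within 2-fold, at 0.29 and 0.30 at 4 h. The 3 probe sets of Gcn1 ran from -0.15 to 0.61. Protein and phosphorylation were not measured.

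The 11 measured subunits of eIF3, the large scaffold that binds the small ribosomal subunit, lay close together by their brightest probe sets. None was 2-fold lower or higher at either time, beside 14.4% of all genes lower at 4 h. Above 0 at 4 h lay 9 of 11, beside 4483 of 9723 in all. All 11 fell in the brightest bin of genes by signal, however. There 1793 of 2431 genes lay above 0 at 4 h, while 73 passed 2-fold lower. Neither count thus sets the subunits apart from genes of like signal. Eif3c, a core subunit, had signals of 8654, 12379 and 12460 at 0, 2 and 4 h, with both later arrays above the first. Its ratio was 0.53 ± 0.12 at 4 h (SD over 4 probe sets), the highest of the subunits by brightest probe set. The dimmer passing probe set of Eif3l stood higher, at 1.23 at 2 h and 1.53 at 4 h, beside 0.29 and 0.42 for its brightest. Eif3h had 11356, 15390 and 15881 and a 4 h ratio of 0.48. Eif3a, the largest subunit by protein size, was the lowest of the 11, with 7143, 5871 and 6290 and a 4 h ratio of -0.18 ± 0.27 (SD over 4 probe sets). Another passing probe set of Eif3a stood at -1.14 at 2 h. The median over the subunits was 0.36 at 4 h, but this was -0.02 after quantile normalization and 0.04 with spike-in scaling.

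Within eIF4F and its helpers the helicase forms Eif4a1 and Eif4a2, whose proteins are close paralogs, differed. Eif4a2 had signals of 8208, 3330 and 3731 at 0, 2 and 4 h, so that both later arrays were low. It was 2.46-fold lower at 2 h and 2.20-fold lower at 4 h (log2 ratios -1.30 and -1.14), from 1 probe set. Eif4a1 had 40142, 41749 and 42175, nearly level, with ratios of 0.06 ± 0.06 and 0.07 ± 0.08 (SD over 3 probe sets). The Eif4a1 and Eif4a2 ratios thus differed by more than the probe-level error of the brightest bin, and no test over cultures was possible.

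Eif4b, which stimulates the helicase, was lower in steps. It had 7540, 5337 and 3637 at 0, 2 and 4 h, the highest array being the first and the lowest the last. Its ratios were -0.50 ± 0.09 and -1.05 ± 0.11 (SD over 3 probe sets), and the 4 h signal was 2.07-fold lower. The related Eif4h stayed at 0.12 at 4 h. Eif4a3, the helicase of the exon junction complex, did not pass, with 61.9, 50.7 and 110.

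The cap-binding protein gene Eif4e had signals of 6744, 6881 and 6747 at 0, 2 and 4 h, and the 3 arrays were level by this brightest probe set. Its ratios were 0.03 ± 0.13 and 0.00 ± 0.26 (SD over 4 probe sets). The 4 probe sets ran from -0.24 to 0.03 at 2 h and from -0.09 to 0.47 at 4 h. Eif4e2, which encodes the competing cap-binding protein 4EHP, had 0.19 at 4 h by its brightest probe set, but its 5 probe sets ran from -1.69 to 0.40. Eif4g2, a scaffold without the eIF4E-binding site, had 26852, 32611 and 35101, lowest at 0 h, with a 4 h ratio of 0.39. By their brightest probe sets Eif4g3 was at -0.15 and Eif4e3 at -0.30 at 4 h, while their other passing ones stood at 0.32 and 0.60.

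**Figure D2:**
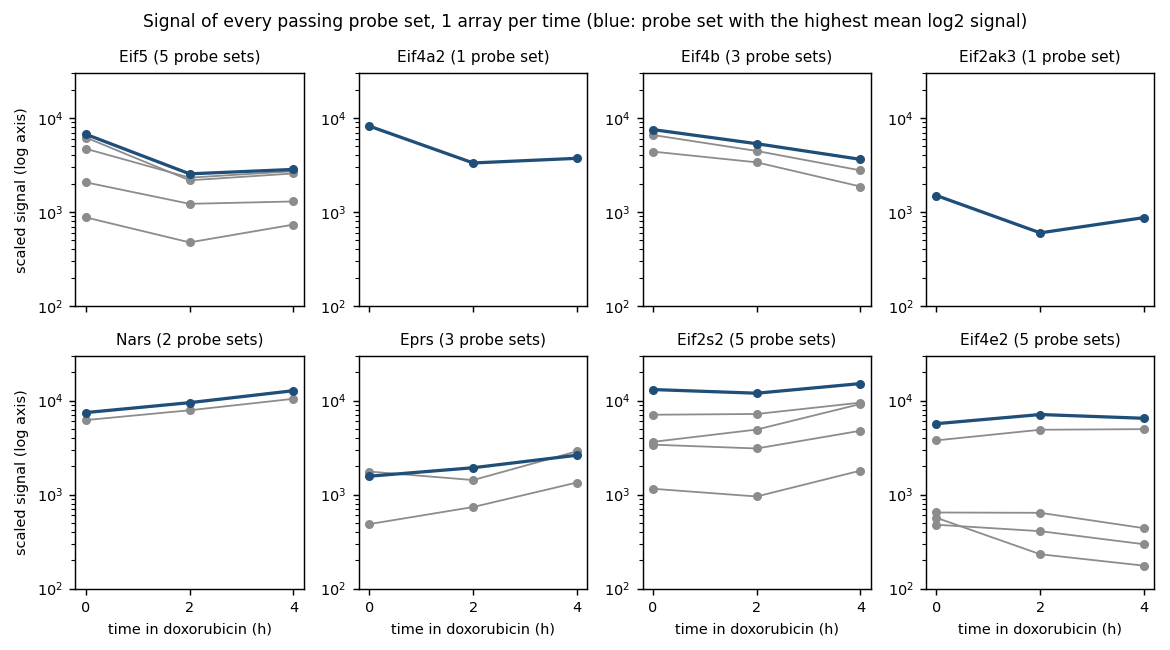
Scaled signal (log axis) of every passing probe set of 8 members at 0, 2 and 4 h, from 1 array per time, with the brightest probe set of each in blue. All 5 lines of Eif5 and all 3 of Eif4b are lower at 2 and 4 h than at 0 h, while the 5 of Eif4e2 run apart (4 h log2 ratios from -1.69 to 0.40).

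Eif4e is a known Myc target in mouse and human cells, so its upstream sequence is shown. Myc, chosen after its values were seen, had signals of 1613, 109 and 128 at 0, 2 and 4 h and was 14.8-fold lower at 2 h and 12.6-fold lower at 4 h. The RefSeq promoter windows of GRCm38.p6, which run from 250 bases before to 50 bases after each annotated start, were searched for CACGTG, the E-box that Myc and other factors bind. The letters read the same on both strands. Of the factors with a window, 12 of 47 held the motif (25.5%), as did 4 of 25 synthetases, beside 8.09% of all 27025 genes. The Eif4e window with a match carried CACGTG with its first base at positions -228 and -64 from the start. Its 250 upstream bases, chr3:138527018-138527267 on the plus strand, are printed with those letters in capitals.
Eif4e: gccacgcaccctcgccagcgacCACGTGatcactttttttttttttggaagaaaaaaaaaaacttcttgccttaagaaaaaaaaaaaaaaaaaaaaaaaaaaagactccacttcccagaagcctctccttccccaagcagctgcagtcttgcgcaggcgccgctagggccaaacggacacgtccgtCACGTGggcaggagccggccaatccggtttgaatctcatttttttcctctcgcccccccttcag
A match is a description of these letters and no measure of binding. Other factors with the motif were Eef1aknmt, Eef2, Eef2k, Eif1b, Eif3a, Eif3f, Eif3k, Eif4a1, Eif4h, Eif5a and Eif5a2. None of these 12 genes was 2-fold lower at either time, beside 5.69% and 14.4% of all genes. For Eef1aknmt this rested on the choice of probe set: its other passing one stood at -1.79 at 4 h, and the mean over both at -1.11. All of the 12 but Eef1aknmt, Eef2k and Eif5a2 fell in the brightest bin of genes by signal, however. Of the 2431 genes there, only 18 lay past the lower 2-fold line at 2 h, and 73 did at 4 h. The lack of such genes among the 12 thus does not set them apart from genes of like signal.

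The 4E-binding proteins and the eIF4E transporter differed among themselves. Eif4ebp1 had signals of 9732, 13341 and 14931 at 0, 2 and 4 h, lowest at 0 h, with ratios of 0.46 ± 0.47 and 0.62 ± 0.45 (SD over 2 probe sets). Eif4ebp2 had 2442, 2514 and 1625, low on the 4 h array alone, with a 4 h ratio of -0.59 ± 0.21 (SD over 4 probe sets). Eif4enif1, whose protein 4E-T carries eIF4E into the nucleus and to processing bodies, had 1120, 1360 and 685. It was highest at 2 h and lowest at 4 h, and its log2 ratio of 4 h to 2 h was -0.99, just inside 2-fold. The eIF4E kinase genes were lower in steps, Mknk2 with 4872, 3354 and 2637 and Mknk1 with a 4 h ratio of -0.71. Pdcd4, which inhibits eIF4A, was at 0.69 at 4 h.

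Eif5a encodes the factor that helps ribosomes past difficult peptide bonds and carries the modified lysine hypusine. It had signals of 42435, 50714 and 51144 at 0, 2 and 4 h, with a 4 h ratio of 0.27 ± 0.04 (SD over 2 probe sets). Its relative Eif5a2 had 485, 479 and 631, highest at 4 h. Of the hypusine enzymes, Dhps stood at 0.50 and Dohh at -0.10 at 4 h.

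None of the 10 passing elongation factors and their modifiers was 2-fold lower, beside 5.69% of all genes at 2 h and 14.4% at 4 h, a count too small to read as a difference from all genes. Eef1a1, which brings charged tRNA to the ribosome, had signals of 71018, 76346 and 71340 at 0, 2 and 4 h, level on all 3 arrays. Eef2, the translocase, had 28036, 35115 and 32700, lowest at 0 h. Eef1b2, an exchange factor of eEF1A, had 20389, 29947 and 29699, and both later arrays were above the first by 0.55 and 0.54. Eef1d, another exchange factor subunit, stood at 0.50 ± 0.54 at 4 h (SD over 4 probe sets).

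Eef1a2, the form of eEF1A known from muscle and neurons, was the member at least 2-fold higher at 2 h, in 9 of the 11 settings of processing that gave a value. Its signals were 211, 434 and 346 at 0, 2 and 4 h, from 1 dim probe set, with the 0 h array lowest. The ratios were 1.04 at 2 h and 0.71 at 4 h, against a probe-level SD of 0.59 and 0.69 in the dimmest bin of genes. The 2 h ratio was 0.82 with spike-in scaling and 0.89 with an offset of 50, and the gene did not pass a filter of 400. Eef2k, the kinase that inactivates eEF2, had 256, 373 and 396, but its 2 probe sets stood at -0.69 and 0.63 at 4 h. Eef1akmt2, a methyltransferase of eEF1A, had 622, 636 and 969, high at 4 h alone. Eef1e1, which belongs to the multi-synthetase complex, had 3788, 3719 and 2600, low at 4 h alone, with a ratio of -0.54. The methyltransferase gene Eef2kmt did not pass, with 52.4, 76.4 and 32.2.

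Messages of many elongation factors carry a terminal oligopyrimidine tract, which ties their translation to mTOR. Of 9 measured genes on a list of such factors, Pabpc1 included, 8 lay above 0 at 4 h, beside 4483 of 9723 genes in all. Eif4b was the exception. All 9 fell in the brightest bin of genes by signal, where 1793 of 2431 genes lay above 0 at 4 h. The median of the 9 was 0.35 at 2 h and 0.36 at 4 h, and the 4 h median was 0.04 after quantile normalization and 0.04 with spike-in scaling. Pabpc1, the poly(A)-binding protein gene, had 35709, 47945 and 46446 at 0, 2 and 4 h. Only mRNA was measured, so translation of these messages was not seen.

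The cytosolic and the mitochondrial synthetases had different medians. Over all 32, the median was 0.03 at 2 h and 0.06 at 4 h. At 2 h 1 synthetase was at least 2-fold lower and at 4 h 2 were, all in the mitochondrial group, beside 5.69% and 14.4% of all genes, while 0 were 2-fold higher at either time. The 19 cytosolic synthetases had medians of 0.20 and 0.35. Of the 19, 16 lay above 0 at 4 h, beside 4483 of 9723 genes in all. The brightest bin of genes by signal held 17 of the 19, and there 1793 of 2431 genes lay above 0 at 4 h. The 13 mitochondrial synthetases had medians of -0.16 and -0.40, and 4 of 13 lay above 0 at 4 h. The 2 dimmest bins held 11 of the 13, and there 1606 of 4861 genes lay above 0 at 4 h. Neither count of synthetases above 0 is thus to be read against all genes alone. The cytosolic 4 h median was 0.66, 0.14 and 0.03 and the mitochondrial one -0.09, -0.06 and -0.72 with equal medians, quantile normalization and spike-in scaling. The order of the groups was thus the same in these 3 scalings, while the size of the gap was not.

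**Figure D3:**
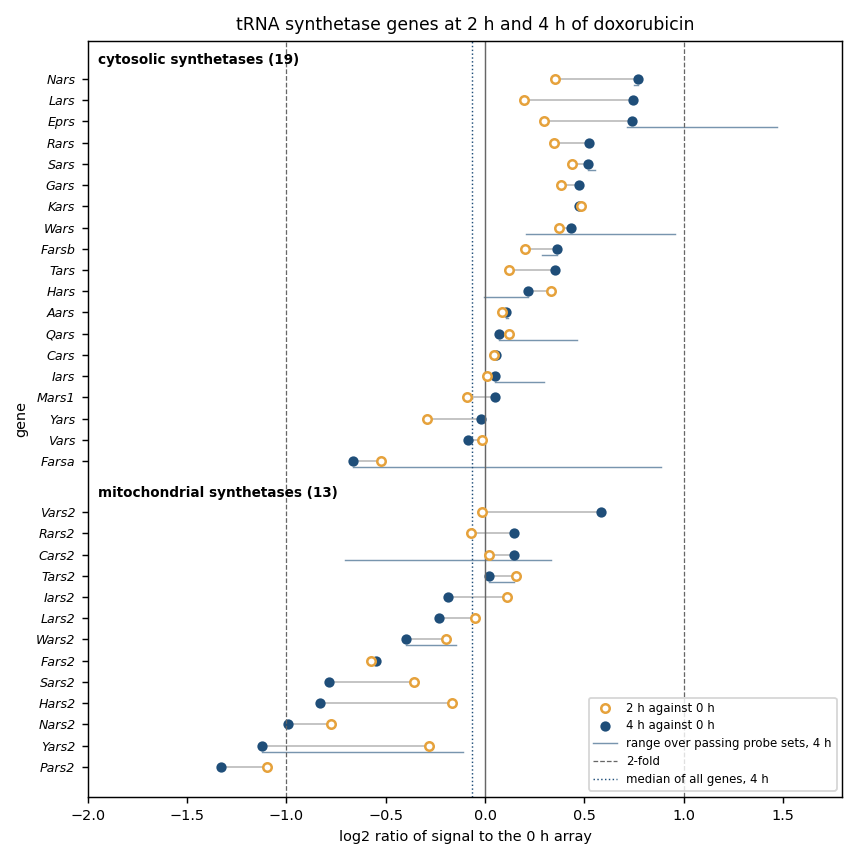
Log2 ratio of each passing aminoacyl-tRNA synthetase at 2 h and at 4 h against 0 h, cytosolic and mitochondrial enzymes apart, from 1 array per time; the dashed lines mark 2-fold. Nars, Lars and Eprs are at the upper end at 4 h (0.77, 0.74 and 0.74) and the mitochondrial Pars2 and Yars2 at the lower end (-1.33 and -1.12).

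Among cytosolic enzymes, Nars, which charges tRNA with asparagine, had signals of 7454, 9502 and 12737 at 0, 2 and 4 h. The first array was lowest and the last highest, with ratios of 0.35 and 0.77, and the 2 probe sets differed by an SD of 0.02 at 4 h. Nars stayed above 0 at 4 h in all 12 settings tried, from 0.39 to 1.08. Lars, the leucyl enzyme that also senses leucine for mTOR, had 1885, 2161 and 3155 in the same order, with a 4 h ratio of 0.74. Eprs, the fused glutamyl and prolyl enzyme, had 1568, 1929 and 2621, and its 4 h ratio was 0.74 ± 0.43 (SD over 3 probe sets).

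Sars, the seryl enzyme, had signals of 7303, 9895 and 10454 at 0, 2 and 4 h. Gars, the glycyl enzyme that serves cytosol and mitochondria from 1 gene, had 8676, 11313 and 12060. Kars, the lysyl enzyme, which also serves both, had 4101, 5741 and 5691. In all 3 genes the later arrays were both above the first. Rars had a ratio of 0.52, Wars 0.43, Farsb 0.36, Tars 0.35 and Hars 0.21 at 4 h. By their brightest probe sets Aars had 6646, 7058 and 7152 and Iars 2910, 2935 and 3017, so that neither differed by more than 0.11 from 0 h. The other passing probe set of Iars stood at 0.38 at 2 h and 0.30 at 4 h. Qars, Cars, Mars1, Vars and Yars stood between -0.08 and 0.07 at 4 h by their brightest probe sets. The other passing ones of Qars were at 0.46 and 0.45 at 4 h.

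Farsa and Farsb, the subunits of cytosolic phenylalanyl-tRNA synthetase, gave opposite signs. Farsa had signals of 1481, 1030 and 932 at 0, 2 and 4 h, highest at 0 h, with a 4 h ratio of -0.67, the lowest of the cytosolic group. Its 3 passing probe sets did not share this sign and ran from -0.67 to 0.89. Farsb stood at 0.36 ± 0.04 (SD over 3 probe sets).

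Of 13 synthetases listed as ATF4 targets from mouse and human work, 11 lay above 0 at 4 h, beside 4483 of 9723 genes in all. All but Yars fell in the brightest bin of genes by signal, where 1793 of 2431 genes lay above 0. The 13 had medians of 0.12 at 2 h and 0.35 at 4 h. The other 6 cytosolic genes had medians of 0.27 and 0.29, and 5 of 6 lay above 0 at 4 h. In neither list did a gene differ by 2-fold, beside 73 of 2431 genes at least 2-fold lower at 4 h in the brightest bin, which held 17 of the 19, although 3 of the 13 were at least 2-fold higher at 4 h with equal medians. The 10 measured genes of the multi-synthetase complex, which holds several cytosolic enzymes and their scaffolds, had medians of 0.16 and 0.14. Its scaffold genes Aimp1 and Aimp2 were at 0.20 and -0.35 at 4 h, beside -0.54 for Eef1e1. The other passing probe set of Aimp2 was at 0.04.

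ATF4 binds a composite element whose core is TGATGNAA, and the promoter windows were searched for these letters on both strands. The letters occurred in 5 of the 12 cytosolic synthetases with a window, beside 4.51% of all 27025 genes. The 5 genes were Aars, Gars, Iars, Tars and Yars, all on the ATF4 list, of which 8 had a window. None of 13 mitochondrial synthetases and 2 of 47 factors (Eef2k and Eif2s3x) held them. The matches of Gars, Iars, Tars and Yars are shown because the element is what ties these genes to ATF4 in earlier work. Each line has 30 bases read along the gene's own strand, with the match in capitals. The lines come from RefSeq windows of GRCm38.p6, at chr6:55037960-55037989 for Gars, chr13:49682126-49682155 for Iars, chr15:11399655-11399684 for Tars and chr4:129189895-129189924 for Yars. Tars is on the minus strand and the others on the plus strand.
Gars: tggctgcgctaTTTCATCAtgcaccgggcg
Iars: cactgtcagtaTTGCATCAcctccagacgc
Tars: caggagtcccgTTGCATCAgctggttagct
Yars: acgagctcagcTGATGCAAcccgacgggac
In Gars, Iars and Tars the letters stand as the reverse complement, and Yars has them in the forward reading. Gars and Tars have the match before the start, and Iars and Yars just after it. The 4 h ratios of the 5 genes were 0.11 for Aars, 0.48 for Gars, 0.05 for Iars, 0.35 for Tars and -0.02 for Yars, within the range of the other cytosolic enzymes.
The 4 synthetases with the E-box letters in their windows were Aars, Farsb, Iars and Tars.

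Of the mitochondrial synthetases, Pars2, the prolyl enzyme, had signals of 358, 167 and 142 at 0, 2 and 4 h. The 0 h array was high and both later arrays were under 200. Its ratios were -1.10 and -1.33, from 1 probe set. Yars2, the tyrosyl enzyme, had 745, 612 and 341, lowest at 4 h, and its ratios were -0.28 ± 0.55 and -1.12 ± 0.72 (SD over 2 probe sets). The spread between its probe sets was thus wide, and the other one stood at -0.11 at 4 h.

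Nars2 had signals of 496, 289 and 249 at 0, 2 and 4 h, with a 4 h ratio of -0.99, just inside 2-fold. Hars2 had 392, 350 and 221 and Sars2 had 700, 545 and 406, both lowest at 4 h, at -0.83 and -0.79. In the other direction Vars2 had 281, 278 and 420, high at 4 h alone, at 0.58. Fars2 stood at -0.55, Wars2 at -0.40, Lars2 at -0.23 and Iars2 at -0.19, while Tars2, Cars2 and Rars2 were between 0.02 and 0.15. The 3 passing probe sets of Cars2, however, ran from -0.71 to 0.33 at 4 h. Aars2 and Mars2 did not pass, with 339, 73.0 and 107 for Aars2 and 145, 5.13 and 56.2 for Mars2. In both of these the 0 h array was the highest.

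Other genes of mitochondrial translation did not share 1 direction. Mtif2, the mitochondrial initiation factor, stood at 0.50 at 4 h, Tufm, the mitochondrial elongation factor Tu, at 0.49 and Gfm1, the translocase, at 0.46. The other passing probe set of Tufm stood at -0.42. Tsfm, the exchange factor of Tufm, was at -0.57, the recycling factor gene Mrrf at -0.44 and Ears2, the mitochondrial glutamyl-tRNA synthetase, at -0.51. Tarsl2, a threonyl-tRNA synthetase-like gene, had signals of 292, 280 and 504 at 0, 2 and 4 h, with the 4 h array alone high.

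Of 35 further genes of the pathway on the array, 32 passed, 4 were at least 2-fold lower at both 2 h and 4 h, beside 5.69% and 14.4% of all genes, and 0 were 2-fold higher. Their median was -0.12 at 2 h and 0.13 at 4 h. Beside Atf4, Ppp1r15a and Ppp1r15b, the lower gene was Pelo, which rescues stalled ribosomes. Pelo had signals of 799, 369 and 82.7 at 0, 2 and 4 h, and since the last lies under 100 the 4 h signal was at least 7.99-fold lower. Its partner Hbs1l was at 0.65 at 4 h, but the other passing probe set of Hbs1l was at -0.04. The termination factor genes Etf1 and Gspt1 were at -0.07 and -0.11 by their brightest probe sets, while others ran up to 0.69 and 0.29. The recycling factor gene Abce1 was at 0.50.

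Ratios on these arrays varied with signal, and the groups differed in signal. In the 4 bins of genes by mean signal, from dim to bright, the median log2 ratio of all genes at 4 h was -0.29, -0.29, -0.08 and 0.28, and at 2 h it was -0.19, -0.16, -0.03 and 0.19. The share at least 2-fold lower at 4 h was 21.4%, 21.2% and 11.9% in the 3 dimmer bins, and 73 of 2431 genes in the brightest. The bins held 5, 4, 9 and 37 factors, 0, 0, 2 and 17 cytosolic synthetases, and 5, 6, 2 and 0 mitochondrial synthetases. In the brightest bin the median at 4 h was 0.19 for 37 factors and 0.36 for 17 cytosolic synthetases, beside 0.28 for all 2431 genes. Above 0 at 4 h lay 26 of these 37 factors, 16 of these 17 synthetases and 1793 of all 2431 genes. Eif5, Eif4a2 and Eif4b were the 3 of those 37 factors past 2-fold lower at 4 h, and 2 of the 37 were so at 2 h, beside 73 and 18 of all 2431 genes in the bin. In the lower 2 bins the 11 mitochondrial synthetases had a 4 h median of -0.55, beside -0.29 for all 4861 genes, and 2 of 11 were at least 2-fold lower, beside 21.3%. The part of signal in the gap between the synthetase groups was not tested beyond these values.

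**Figure D4:**
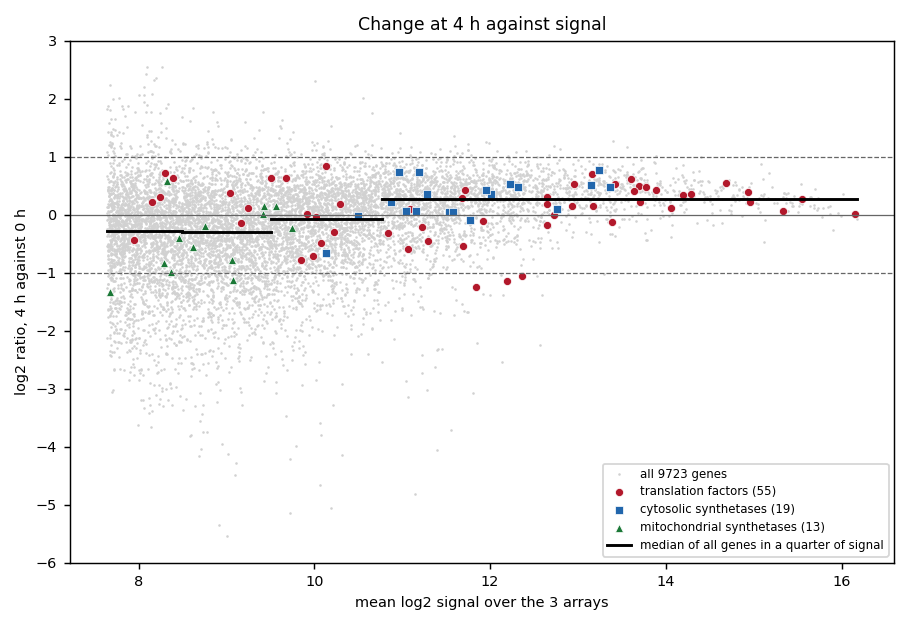
Log2 ratio at 4 h against 0 h plotted against mean log2 signal for all passing genes, with factors, cytosolic and mitochondrial synthetases marked. Black lines, the medians of all genes in 4 bins of signal, stand at -0.29 in the dimmest and 0.28 in the brightest bin, where 37 of 55 factors and 17 of 19 cytosolic synthetases lie.

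When every gene was centred on the median of genes of like signal, a setting chosen after the data were seen, the 4 h medians came to -0.04 for factors, 0.08 for cytosolic and -0.11 for mitochondrial synthetases. Eif5, Eif4a2 and Eif2ak3 were at least 2-fold lower at 2 h in all 12 settings, at -1.61 to -1.11, -1.54 to -1.15 and -1.54 to -1.17. At 4 h Eif4a2 and Eif4b were so in 11 of 12 settings and Eif5 in 10 of 12. Pars2 was at least 2-fold lower at 4 h in 10 of the 11 settings that gave a value, and Yars2 in 7 of 11.

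**Figure D5:**
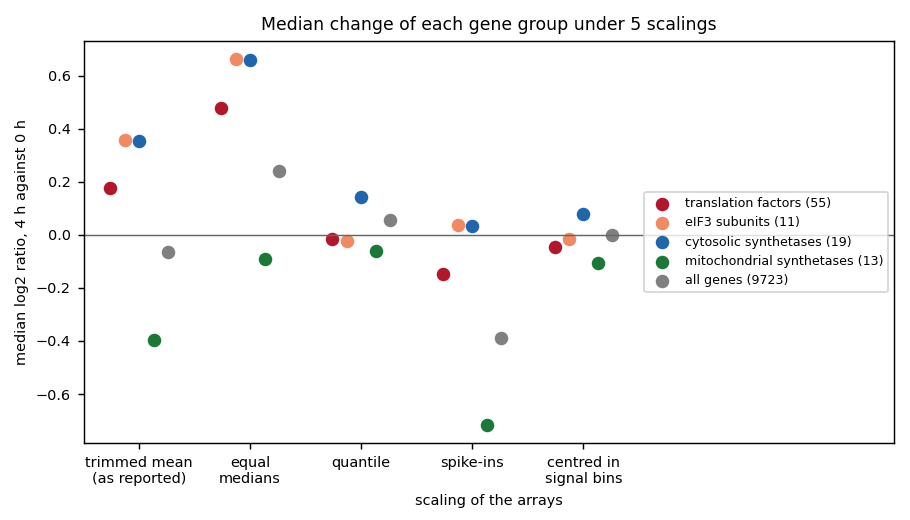
Median log2 ratio at 4 h against 0 h of factors, eIF3 subunits, cytosolic and mitochondrial synthetases and all passing genes, under the scaling used and its alternatives. Mitochondrial synthetases are below and cytosolic ones above 0 in each, while factors change side, from 0.48 with equal medians to -0.15 with spike-in scaling.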

How the data were processed

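The deposited values are linear probe set intensities of 3 Affymetrix Mouse430_2 arrays, the chip type per the file headers, and GCOS 1.4 is named per the submitters' processing notes. How the signals were computed was not given in the sources used here. In this state the authors' deposited intensities had the same 2% trimmed mean of 150.0 on each array. They were rescaled to 500, floored at 100 and put on a log2 scale. Probe sets with a mean log2 signal of at least that of 200 passed, and a gene took its brightest one. The platform annotation lists 35890 of 45101 probe sets, of which 34958 have 1 symbol, 932 have several (not used here, 9 of them naming a member) and 9211 are not listed. Symbols of 34754 were updated by Entrez ID to RefSeq GRCm38.p6. A promoter window was found for 72 of 92 members, and some of their sequences are not reported here.

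With 1 array per time no test was made, and members were counted at 2-fold beside all genes. The members and lists were chosen with earlier results of these data known. Named were members at least 2-fold different, the 6 highest and 6 lowest factors and synthetases at 4 h, the 3 brightest of each, and all eIF2, eIF2B, eIF2 alpha kinase and 4E-binding protein genes. Others were named for their role. Alternatives were quantile normalization, equal medians over passing probe sets, scaling to 18 hybridization spike-in probe sets, an offset of 50, floors of 50 and 200, a filter of 400 or none, averaging a gene's probe sets, and dropping those with suffixed names. The counting was tested on simulated data, with changes well beyond 2-fold planted in bright genes alone. False calls, changes near 2-fold and dim genes were not covered by it. Fluidics modules 3, 4 and 1 handled the arrays of 0, 2 and 4 h. Python 3.11.15, numpy 2.4.6, pandas 2.3.3 and matplotlib 3.10.9 were used.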

Additional observations from a re-analysis of the deposited data

How the results depend on the processing

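No paired analysis was possible because each time has 1 array, and for the same reason no array could be left out. With 3 arrays in all the precision of each ratio is limited, and dim genes have the widest probe-level error. The count of factors at least 2-fold lower at 2 h was 3 in every setting. Factors at least 2-fold lower at 4 h were 3, but 0 with equal medians of passing probe sets and 5 with spike-in scaling. Factors at least 2-fold higher at 4 h were 0, but 2 with equal medians, 1 after quantile normalization and 2 with centring within 20 bins of signal, a setting added after the data were seen. Synthetases at least 2-fold lower at 2 h were 1, but 2 with no filter and 0 with equal medians, quantile normalization, a floor of 200, an offset of 50, a filter of 400 and centring. Synthetases at least 2-fold lower at 4 h were 2, but 5 with spike-in scaling, 3 with no filter and 1 with equal medians, quantile normalization, a floor of 200, a filter of 400, the mean over probe sets, suffixed probe sets left out and centring. Synthetases at least 2-fold higher at 4 h were 0, but 3 with equal medians (Nars, Lars and Eprs). Causes were not tested. The scalings moved the 4 h median of all genes by 0.31 (equal medians), 0.12 (quantile) and -0.32 (spike-in), and all genes at least 2-fold lower and higher at 4 h then numbered 872 and 724, 991 and 431, and 2206 and 65, beside 1396 and 226. Over 11 alternatives, 1647 of 1854 values of single members moved by less than the spread between probe sets and 207 by more. The 1647 include values that could not move. No passing member had a signal under 100, so a floor of 50 changed none, and the filters kept the same brightest probe set. Averaging could not move the 38 members with 1 passing probe set. The counts of settings given for single genes include these settings too. A change of sign was looked for only in members at least 2-fold different with the scaling used, and 0 were found. Those lie farther from 0 than the scalings moved the median of all genes, so this says nothing of the smaller ratios. The 4 h ratio of Aars, for 1, lay below 0 in 3 of 12 settings.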

Other observations

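Probe sets of the same gene disagreed for many members, a comparison chosen after the values were seen. Of 49 members with several passing probe sets, 19 had both signs at 4 h, 14 spanned at least 1 on the log2 scale and 16 spanned at most 0.25. Eif4e2 had the widest span at 4 h, 2.09 over 5 probe sets. Its brightest one had signals of 5678, 7105 and 6479 at 0, 2 and 4 h, while another had 566, 232 and 175. Farsa spanned 1.55, with 1481, 1030 and 932 on the brightest probe set and 257, 421 and 476 on another. Eif1ax spanned 1.39, Eef1aknmt 1.35 and Eef2k 1.32. At the other end the 2 probe sets of Aars spanned 0.0093, those of Nars 0.02 and those of Sars 0.04. Whether the probe sets of a member read different transcript ends was not tested.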
